A study of Homo sapiens with 12 samples.

Results

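The BCL2 family sets the threshold at which a cell starts apoptosis through its mitochondria. A total of 10 of its genes were followed in RNA sequencing of Huh7, a cell line long established from a human liver carcinoma: BIK, BCL2L11, BBC3, PMAIP1, BID, BAD, BAX, BAK1, BCL2L1 and MCL1. Each was found once, by its Ensembl identifier and its GENCODE 29 symbol, among 59191 features of the deposited table. There were 12 libraries in 4 groups of 3. The combination group received disulfiram and thalidomide together, the disulfiram and the thalidomide groups received 1 drug each, and the control group, named for DMSO in the table, received neither drug. Disulfiram is an inhibitor of aldehyde dehydrogenases, and thalidomide is a ligand of cereblon, which selects the substrates of a ubiquitin ligase. All libraries carry the label of the same cell line, and no label says whether the 3 libraries of a group came from separate cultures, so each p-value rests on a spread between libraries that may be technical. The sources used here give neither doses with units nor the length of treatment. The protocol text in the labels describes dissociated patient tissue and droplet libraries of single cells, whereas the cell line labels and the design text describe 12 samples of Huh7. The table holds 1 value per gene and library.

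BCL2 proteins act in 3 roles. BH3-only proteins sense damage or lost growth signals and bind their relatives through a short helix, the BH3 domain. The effectors BAX and BAK1 form pores in the mitochondrial outer membrane, through which cytochrome c leaves and starts the caspase cascade. Pro-survival members such as BCL2L1 (BCL-XL) and MCL1 hold both other classes in check, and mouse hepatocytes that lack either of them die spontaneously.

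All 10 members carry the BH3 core, and the stretch that encodes it is shown because it is the feature that the 3 roles share. A script searched all annotated proteins of each gene in GENCODE 29 (GRCh38) and kept the longest with a match. The pattern was a hydrophobic residue, 3 residues, leucine, 3 residues, a glycine, alanine or serine, and aspartate. Each line gives 27 coding bases on the gene's own strand from that leucine on, with the leucine codon and the codons of the small residue and the aspartate in capitals.
BIK: CTGgcctgcatcGGGGACgagatggac
BCL2L11: TTGcggcgtattGGAGACgagtttaac
BBC3: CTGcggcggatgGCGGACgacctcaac
PMAIP1: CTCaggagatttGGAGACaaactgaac
BID: CTCgcccaggtcGGGGACagcatggac
BAD: CTCcggaggatgAGTGACgagtttgtg
BAX: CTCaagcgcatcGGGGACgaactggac
BAK1: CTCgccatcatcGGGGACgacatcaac
BCL2L1: CTGagggaggcaGGCGACgagtttgaa
MCL1: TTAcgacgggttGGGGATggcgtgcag
The leucine stands at residue 29 of 54 in PMAIP1, the shortest of the 10 proteins, at residue 61 of 160 in BIK, 152 of 198 in BCL2L11 and 141 of 193 in BBC3. In the pro-survival members it stands at residue 90 of 233 in BCL2L1 and 213 of 350 in MCL1. BID held a second match nearer its start, which is not shown. The pattern is loose, since 15.6% of 19565 coding genes hold it in their longest protein, so a match alone does not mark a family member. The members were searched over all their proteins, so that share is not a like comparison.

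TPM, a share of all transcripts scaled by gene length, keeps no read count, and the depth behind each value is therefore unknown. Between 13693 and 15038 genes reached 1 TPM in a library. All 9 hepatocyte and hepatoma markers averaged at least 1 TPM over the 12 libraries, with sums of 2779.95 to 3678 TPM in combination libraries, 2774 to 3032 in disulfiram, 3849 to 6215 in thalidomide and 3414 to 5699.85 in control. Of markers of other cell types, 3 of 10 immune, 1 of 6 endothelial and 3 of 8 fibroblast genes averaged 1 TPM or more. RGS5, 1 of these 8 fibroblast genes, was listed on 2 rows and was not evaluated, here or in the fibroblast sum. MS4A1, TEK and CLEC14A were listed at 0 throughout. The endothelial sum was 3.83 to 5.43 TPM in combination libraries, 3.52 to 7.42 in disulfiram, 1.66 to 2.51 in thalidomide and 0.79 to 1.55 in control. The immune sum, most of it CD14, was 101.04 to 106.7 TPM in the combination, 76.22 to 149.06 with disulfiram, 121.9 to 171.74 with thalidomide and 117.2 to 178.84 in control. The fibroblast sum was 60.47 to 85.98 TPM in the combination, 56.43 to 71.28 with disulfiram, 55.24 to 84.44 with thalidomide and 71.1 to 83.73 in control. Within their groups, the second combination and the second disulfiram library stood apart in base composition. Across genes, the deviation of a library from the mean of its own group was correlated with GC content (Spearman). The value was 0.66 in combination library 2 but -0.59 and -0.37 in the others of that group. It was 0.60 in disulfiram library 2 but -0.49 and -0.30 in the others. The thalidomide group was also spread, at 0.48, -0.06 and -0.39 in libraries 1, 2 and 3. Control libraries 1, 2 and 3 were at 0.13, -0.18 and 0.04. Such deviations cancel within a group, so the values of a group are not independent. Each member call that changed without both of these second libraries is named below.

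In control cells, the pro-survival BCL2L1 was the most abundant member, at 444 ± 12.2 TPM, followed by the effector BAX at 212 ± 9.08 TPM (SD, n = 3 each). BID (59.45 ± 5.49 TPM) and BAD (53.7 ± 2.67) overlapped in their ranges, and MCL1 (45.7 ± 2.18) and BAK1 (25.6 ± 1.09) came below them, each apart from its neighbours. The BH3-only genes BCL2L11 (10.5 ± 2.11 TPM), BBC3 (10.4 ± 1.82) and BIK (7.84 ± 2.57) overlapped with each other, and PMAIP1 was lowest at 3.96 ± 1.21. BCL2 itself, the gene that names the family, was listed at 0.01 to 0.03 TPM in every library. The order of BCL2L1 and BAX at the top, BAK1 at rank 6 and PMAIP1 last held in all 4 groups. Ranks moved elsewhere. MCL1 took rank 3 in combination cells, at 67.7 ± 3.96 TPM with a range overlapping that of BAD, and rank 5 in control cells. BIK led BCL2L11 and BBC3 in combination and disulfiram cells, with overlapping ranges, and stood below both in thalidomide cells, with ranges apart.

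**Figure D1:**
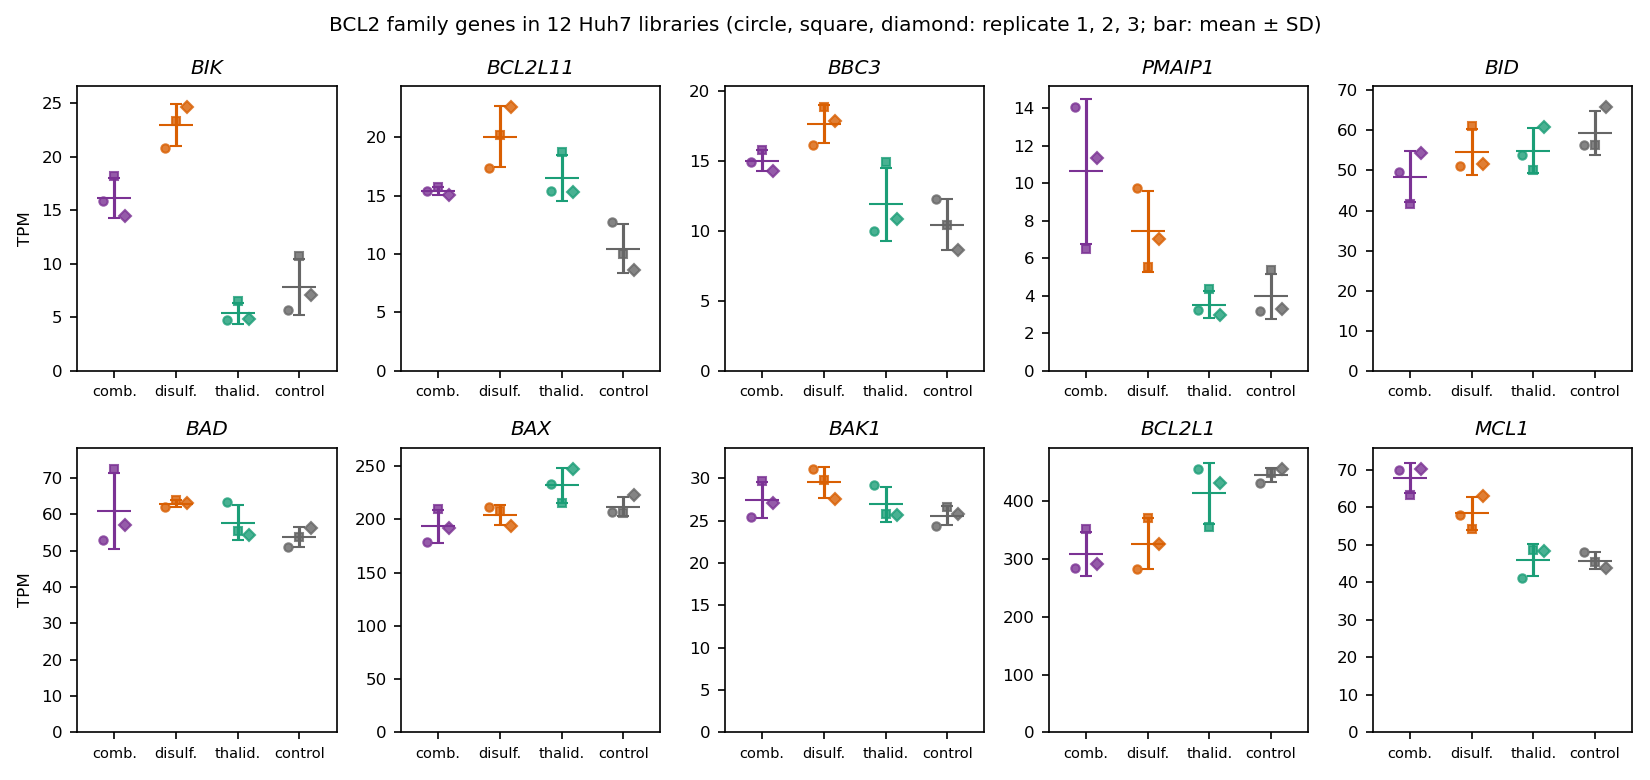
TPM of the 10 genes in each library (marker shape: replicate number), with the mean and SD of each group, in the order combination, disulfiram, thalidomide and control. BIK lies at 14.4 to 24.65 TPM in the 6 libraries with disulfiram, above the 4.74 to 10.7 TPM of the 6 without it, and BCL2L11 is higher in all 9 treated libraries than in any control library.

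In the combination, 5 of the 10 members rose and 1 fell against control. Those that rose were the BH3-only genes BIK, BCL2L11, BBC3 and PMAIP1 and the pro-survival MCL1, and BCL2L1 fell. Disulfiram alone gave 4 higher members and 1 lower, the same genes without PMAIP1. Values were tested with limma on log2(TPM + 1) over 15352 genes that reached 1 TPM in at least 3 libraries, with a Benjamini-Hochberg adjusted p below 0.05 as the threshold. All 10 members passed that filter. Among all genes tested, 18.4% rose and 6.7% fell in the combination, and 8.73% rose and 4.52% fell with disulfiram. The median log2 fold change of the members was 0.33 in the combination, beside 0.20 over all genes tested, and 0.28 beside 0.09 with disulfiram. Counted by range, 5 members lay wholly above control and 2 wholly below it in the combination (33.9% and 12.1% of all genes), and 7 above and 1 below with disulfiram (21.5% and 11.4%). Both comparisons use the same 3 control libraries. Scaling the TPM by median-of-ratios removes most of that common shift. The combination then had 3 higher members (BIK, PMAIP1 and MCL1) and 3 lower ones (BCL2L1, BAX and BID), while over all genes the split of higher to lower calls was 1213 to 2139 in place of 2823 to 1029. With a correction for GC content it had 4 higher (BIK, BBC3, PMAIP1, MCL1) and 2 lower (BCL2L1, BID), and over all genes 1394 to 2004. With disulfiram the split over all genes was 1340 to 694 as deposited, 704 to 1050 with median-of-ratios scaling and 1235 to 1708 with GC correction. The disulfiram members then were 3 higher (BIK, BCL2L11, BBC3) and 1 lower (BCL2L1) with the scaling, and 5 higher (the same 3, PMAIP1 and MCL1) and 1 lower with the GC correction. In the same 2 comparisons the hepatocyte and hepatoma markers APOB, TTR and GPC3 fell and none of the other 6 passed. LYZ, of the immune list, and PECAM1, the 1 endothelial marker tested, rose in both, CD3D rose with disulfiram, and none of 4 fibroblast markers tested passed. The part of these markers in the members' results was not tested. In bulk libraries, a change in every cell and a change in the share of cells that carry the transcript cannot be told apart.

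BIK encodes a BH3-only protein of the endoplasmic reticulum and lies at chr22:43110748-43129712 (plus strand). It had 15.9, 18.2 and 14.4 TPM in combination libraries, 20.8, 23.4 and 24.65 in disulfiram libraries, 4.74, 6.49 and 4.89 in thalidomide libraries, and 5.71, 10.7 and 7.12 in control libraries. All 6 libraries with disulfiram were above all 6 without it, and the disulfiram libraries were above the combination libraries. The ratio of mean TPM to control was 2.93 with disulfiram (log2 fold change 1.47 ± 0.19 SE, adjusted p = 0.000576) and 2.06 in the combination (0.99 ± 0.19, adjusted p = 0.00493). With disulfiram BIK ranked 104 from the top of 15352 genes by log2 fold change. Both calls held under all 21 alternatives, with log2 fold changes of 1.29 to 1.69 for disulfiram and 0.77 to 1.21 for the combination. Of these alternatives, 12 each left out 1 library. Leaving out a library of a group outside the comparison keeps the fold change and alters only the shared spread.

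BCL2L11 encodes BIM, which binds every pro-survival member and can also activate the effectors directly. The gene lies at chr2:111119378-111168447 (plus strand). Its values were 15.4, 15.75 and 15.0 TPM in the combination, 17.3, 20.15 and 22.6 with disulfiram, 15.35, 18.8 and 15.3 with thalidomide, and 12.8, 9.99 and 8.62 in control. Each treated library exceeded each control library, and the combination libraries, which lay close together, were all below the disulfiram libraries. The log2 fold change was 0.88 ± 0.14 with disulfiram (adjusted p = 0.00245) and 0.53 ± 0.14 in the combination (adjusted p = 0.0214). The disulfiram call held under all 21 alternatives. The combination call was lost with median-of-ratios scaling (0.31, adjusted p = 0.142), with GC correction (0.29, adjusted p = 0.187), also in the fit that adds the replicate block, and when combination library 1 or 3 or control library 2 or 3 was left out. BCL2L11 shares 727 exonic bases with MIR4435-2HG on the opposite strand, and the strand of the reads is not given in the sources used here. That gene had 70.3 to 89.3 TPM over the 12 libraries and did not pass in either comparison.

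The promoter of BCL2L11 is shown because this member was above control in every treated library and because forkhead factors are known activators of the gene. The 250 bases before the start of the transcript, chr2:111120664-111120913 on the plus strand, are from RefSeq (GRCh38.p14), with the matches of 3 of 10 motifs searched on both strands in capitals.
BCL2L11 promoter: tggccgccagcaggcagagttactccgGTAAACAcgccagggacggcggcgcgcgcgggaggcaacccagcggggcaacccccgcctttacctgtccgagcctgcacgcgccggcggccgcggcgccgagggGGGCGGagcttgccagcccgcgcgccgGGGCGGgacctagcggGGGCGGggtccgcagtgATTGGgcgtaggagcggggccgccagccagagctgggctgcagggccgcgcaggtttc
It holds 1 forkhead site (GTAAACA), 3 GC boxes (GGGCGG) and 1 CCAAT box, read on the other strand as ATTGG, and no match overlaps another. Of 35116 promoter windows of the same length, 3.0% hold the forkhead letters, 42.6% the GC box and 32.0% the CCAAT box. The window has no match for an AP-1 site (TGANTCA), the core that ATF and CREB factors bind (TGACGTCA) or the composite of C/EBP and ATF factors (TGATGCAA). It also has none for a pair of heat shock units (GAANNTTC), a metal response element (TGCGCNC), an E-box (CACGTG) or a TATA box (TATAAA). A match describes the letters and is not evidence of binding.

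BBC3 encodes PUMA, a target of p53 and forkhead factors that binds all pro-survival members, at chr19:47220822-47232766 (minus strand). It was listed at 14.9, 15.8 and 14.3 TPM in the combination, 16.1, 18.8 and 17.8 with disulfiram, 9.98, 14.9 and 10.8 with thalidomide, and 12.25, 10.4 and 8.62 in control. The combination and disulfiram ranges both lay above the control range, the disulfiram range also above that of the combination, and thalidomide overlapped control. With disulfiram BBC3 rose by 0.71 ± 0.15 (log2; adjusted p = 0.0104), a call that held under all 21 alternatives. In the combination it rose by 0.50 ± 0.15 (adjusted p = 0.0349). Leaving out any combination library, or control library 2 or 3, ended that call, as did testing without a filter, leaving out both second libraries, and median-of-ratios scaling (0.28, adjusted p = 0.211).

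PMAIP1 encodes NOXA, a short-lived BH3-only protein that binds mainly MCL1, at chr18:59899948-59904306 (plus strand). The combination libraries had 14.05, 6.47 and 11.35 TPM, the disulfiram libraries 9.74, 5.52 and 7.03, the thalidomide libraries 3.26, 4.35 and 2.96, and the control libraries 3.21, 5.36 and 3.32. Every library with disulfiram lay above every control library, but the second library of each disulfiram-containing group, the pair that stood apart in base composition, was close to the highest control library. The longest PMAIP1 transcript has a GC content of 37.2%, the lowest of the 10 members. The combination raised it by a log2 fold change of 1.20 ± 0.27 (adjusted p = 0.0107), and it passed under all 21 alternatives, with log2 fold changes of 0.70 under GC correction to 1.48 without that pair of libraries. With disulfiram alone the difference of 0.76 ± 0.27 missed the threshold (adjusted p = 0.0861), with an interval of 0.17 to 1.35. It passed with GC correction (0.66, adjusted p = 0.0263), without the second combination library (adjusted p = 0.0413) and without both second libraries (0.93, adjusted p = 0.022).

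The remaining BH3-only genes, BID and BAD, are regulated largely at the protein level, BID by caspase-8 cleavage and BAD by phosphorylation and binding to 14-3-3 proteins. BID (chr22:17734138-17774770, minus strand) had 49.55, 41.6 and 54.2 TPM in the combination, 51.0, 61.1 and 51.7 with disulfiram, and 56.3, 56.2 and 65.8 in control. The combination range lay below control and the disulfiram range overlapped it. The log2 difference of -0.29 ± 0.12 in the combination did not pass (adjusted p = 0.0858), though it did with median-of-ratios scaling or GC correction, at -0.53 and -0.44. BAD (chr11:64269830-64284704, minus strand) averaged 60.9 ± 10.4 TPM in the combination, 63.0 ± 1.00 with disulfiram and 53.7 ± 2.67 in control (SD, n = 3 each). Its log2 difference of 0.23 ± 0.11 with disulfiram did not pass (adjusted p = 0.206), and in the combination it was 0.17 ± 0.11 (adjusted p = 0.265), turning to -0.07 with median-of-ratios scaling. BAD shares 404 exonic bases with GPR137 on the opposite strand.

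Neither effector gene passed against control. BAX (chr19:48954815-48961798, plus strand), the cytosolic effector that moves to mitochondria when activated, had 179, 209 and 192 TPM in the combination, 211, 208 and 194 with disulfiram, 233, 215 and 247.5 with thalidomide, and 207, 206 and 222 in control. Its ranges in all treated groups overlapped the control range. The interval of its log2 difference to control was -0.31 to 0.04 in the combination and -0.22 to 0.12 with disulfiram. BAK1 (chr6:33572547-33580293, minus strand), which resides in the mitochondrial outer membrane, averaged 27.4 ± 2.14 TPM in the combination, 29.5 ± 1.81 with disulfiram and 25.6 ± 1.09 in control (SD, n = 3 each). Its intervals were -0.11 to 0.29 in the combination and -0.0045 to 0.40 with disulfiram, and the sign in the combination turned with median-of-ratios scaling (-0.14).

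The pro-survival genes moved in opposite directions. BCL2L1 (chr20:31664452-31723989, minus strand), whose main product BCL-XL guards mitochondria against BIM, BAD and the effectors, had 283, 352 and 291 TPM in the combination, 282, 371 and 325 with disulfiram, 456, 354 and 430 with thalidomide, and 431, 447 and 455 in control. The combination and disulfiram libraries were all below the control libraries. It fell by 0.53 on the log2 scale in the combination (SE 0.12, adjusted p = 0.0107), a call that held under all 21 alternatives, and by 0.45 with disulfiram (SE 0.12, adjusted p = 0.0278). The disulfiram call was lost without a filter on low values and when disulfiram library 1 or 3 or any control library was left out, with log2 values of -0.55 to -0.36 over the single libraries left out. ABALON, an antisense RNA that shares 1424 exonic bases with BCL2L1, had 7.73 to 10.5 TPM in the combination, 7.79 to 9.46 with disulfiram and 12.4 to 15.4 in control. It fell by 0.58 in the combination (adjusted p = 0.0118, lost without combination library 3) and by 0.59 with disulfiram (adjusted p = 0.0133, lost without disulfiram library 1 or control library 3). Without strand its reads and those of BCL2L1 in the shared bases cannot be told apart.

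MCL1 (chr1:150574551-150579738, minus strand) encodes a pro-survival protein with a short half-life that binds BIM, PUMA and NOXA. It had 69.75, 63.15 and 70.2 TPM in the combination, 57.9, 54.1 and 62.9 with disulfiram, 41.1, 48.6 and 48.2 with thalidomide, and 48.1, 45.4 and 43.75 in control. The combination libraries were above the disulfiram libraries, and these above the control libraries, with no overlap. The log2 fold change was 0.56 ± 0.09 in the combination (adjusted p = 0.0027), held under all 21 alternatives and was smallest with GC correction, at 0.29. With disulfiram it was 0.34 ± 0.09 (adjusted p = 0.0297), and that call was lost with median-of-ratios scaling (0.22), in a fit of the compared groups alone, and without disulfiram library 1 or 3 or any control library.

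**Figure D2:**
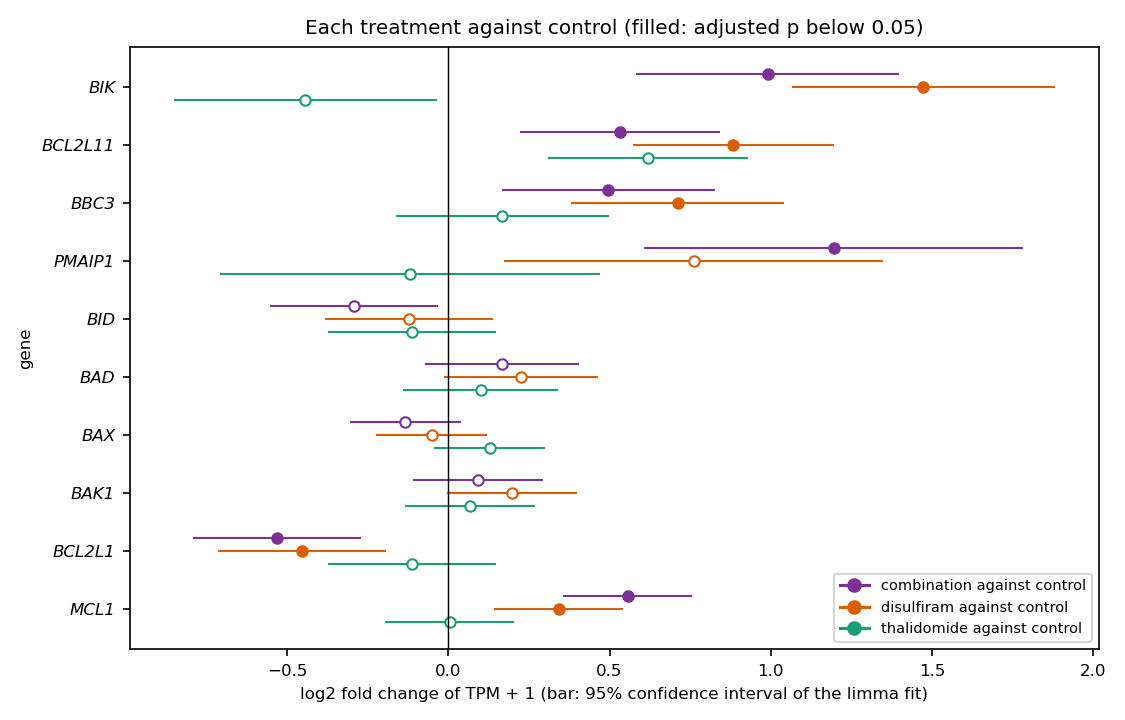
Log2 fold change of TPM + 1 of each member in the combination, with disulfiram and with thalidomide, each against the same control libraries, with 95% confidence intervals from the limma fit and filled points for an adjusted p below 0.05. The 4 upper BH3-only genes and MCL1 lie to the right and BCL2L1 to the left in the combination and disulfiram comparisons, and no thalidomide point is filled.

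No member passed the threshold with thalidomide alone. No gene of all 15352 passed it in limma (0.0%), although 873 (5.69%) had an unadjusted p below 0.05. BCL2L11 was the sole member whose libraries did not overlap control, at a log2 difference of 0.62 ± 0.14 (unadjusted p = 0.000989, adjusted p = 0.504), which ranked 204 from the top, while 3.91% of all genes were higher and 6.32% lower without overlap. Over the 21 alternatives its difference stayed between 0.50 and 0.76, with adjusted p from 0.0838 to 1.0. BIK was lower, at -0.44 ± 0.19 with overlapping libraries (unadjusted p = 0.0354, adjusted p = 0.845). For the other 8 members the difference lay between -0.12 and 0.17, with the interval of MCL1 at -0.20 to 0.20.

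The combination against disulfiram asks what thalidomide added. No member passed, and 1 gene of 15352 (0.00651%) passed. Before adjustment 3 of the 10 members had p below 0.05, against 17.1% of all genes. The combination was lower than disulfiram for BIK, by a log2 difference of -0.48 ± 0.19 (adjusted p = 0.267), and for BCL2L11, by -0.35 ± 0.14 (adjusted p = 0.273). MCL1 was higher, by 0.21 ± 0.09 (adjusted p = 0.277). Libraries did not overlap for these 3 nor for BBC3, at -0.22 ± 0.15, which makes 1 member higher and 3 lower without overlap (9.69% and 6.54% of all genes). PMAIP1 was at 0.43 ± 0.27 with overlapping libraries (adjusted p = 0.394) and an interval of -0.15 to 1.02. Genes overall followed GC content in this comparison (Spearman's rho -0.63 across 15042 genes), and its part in the members' differences was not tested beyond the GC correction, under which MCL1 was at 0.04 and BCL2L11 at -0.50.

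The interaction asks whether the drugs together depart from the sum of their single effects on the log2 scale. No member and no gene passed (0.0%), and 1580 genes (10.3%) had an unadjusted p below 0.05. BCL2L11 was the only member below that level, at -0.97 ± 0.20 (unadjusted p = 0.000441, adjusted p = 0.466, interval -1.41 to -0.53), rank 121 from the lowest. In plain values, thalidomide cells averaged 16.5 TPM and disulfiram cells 20.01 TPM of BCL2L11, each above the 10.5 TPM of control, and combination cells averaged 15.4 TPM. Over its 20 alternatives the value stayed between -1.16 and -0.85, with adjusted p from 0.145 to 0.781. The interaction of BIK was -0.04 ± 0.26, with an interval of -0.62 to 0.54.

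Set against thalidomide instead of control, the combination had 3 higher members (BIK, PMAIP1, MCL1) and 2 lower ones (BCL2L1, BAX), where 25.0% of all genes rose and 7.24% fell. That split over all genes was 3834 to 1112, beside 1600 to 2400 with median-of-ratios scaling, under which BID was also lower, and 1700 to 2077 with GC correction, under which BBC3 was also higher. BIK had a log2 fold change of 1.43 ± 0.19 (adjusted p = 0.00054), PMAIP1 of 1.31 ± 0.27 (adjusted p = 0.00569) and MCL1 of 0.55 ± 0.09 (adjusted p = 0.002), all 3 under each of the 21 alternatives. BAX fell by 0.26 (SE 0.08, adjusted p = 0.0271) and BCL2L1 by 0.42 (SE 0.12, adjusted p = 0.0228), and both calls were lost without combination library 1 or 3 or thalidomide library 1 or 3. The BAX call was lost, too, in a fit of the compared groups alone (adjusted p = 0.0733), and that of BCL2L1 without a filter on low values (adjusted p = 0.0601). Disulfiram against thalidomide gave 4 higher members (BIK, BBC3, PMAIP1, MCL1) and none lower, where 11.9% of all genes rose and 5.2% fell. Over all genes the split was 1826 to 798, beside 971 to 1277 with median-of-ratios scaling, under which BIK alone of the members passed, and 1573 to 1815 with GC correction. BIK reached 1.92 ± 0.19 (adjusted p = 8.49e-05), a ratio of mean TPM of 4.27 and the largest member difference in any comparison made. BBC3 rose by 0.54 ± 0.15 (adjusted p = 0.0291), MCL1 by 0.34 ± 0.09 (adjusted p = 0.0256) and PMAIP1 by 0.88 ± 0.27 (adjusted p = 0.0431). The BBC3 call was lost without disulfiram library 2 or 3 or thalidomide library 1 or 3, and the MCL1 call without disulfiram library 1 or 3 or thalidomide library 1. Both were lost in a fit of the compared groups alone, that of BBC3 also without a filter, and that of MCL1 also with GC correction and the replicate block together. Without both second libraries the BBC3 call was lost (0.50, adjusted p = 0.067) and BCL2L1 was lower (-0.44, adjusted p = 0.0171). Of the fits with 1 library left out, PMAIP1 passed only in those without combination library 1 or 2, disulfiram library 2 or control library 2, and it was lost with the replicate block and without a filter. With GC correction the same 4 members were higher and BAX and BCL2L1 were lower.

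The make-up of the summed TPM of the 10 genes gives the same data by role, as a description without a test. The 6 BH3-only genes held 21.9 ± 1.05% of the sum in the combination, 23.1 ± 0.50% with disulfiram, 17.3 ± 1.35% with thalidomide and 16.7 ± 0.10% in control (SD, n = 3 each). BCL2L1 and MCL1 together held 49.3 ± 1.01% in the combination, 47.7 ± 2.60% with disulfiram, 52.8 ± 1.94% with thalidomide and 56.1 ± 0.46% in control. Every library with disulfiram was above every library without it in the BH3-only share, and below every one of them in the pro-survival share. BAX and BAK1 held 28.9 ± 0.47% in the combination, 29.2 ± 2.38% with disulfiram, 29.8 ± 0.85% with thalidomide and 27.2 ± 0.49% in control. Within the pro-survival share, MCL1 made up 8.92% of the sum in the combination, 7.28% with disulfiram, 5.33% with thalidomide and 5.24% in control. The 10 genes summed to 763 ± 54.5 TPM in the combination, 804 ± 48.6 with disulfiram, 868 ± 64.5 with thalidomide and 874 ± 22.4 in control. These are RNA levels, and the proteins were not measured.

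**Figure D3:**
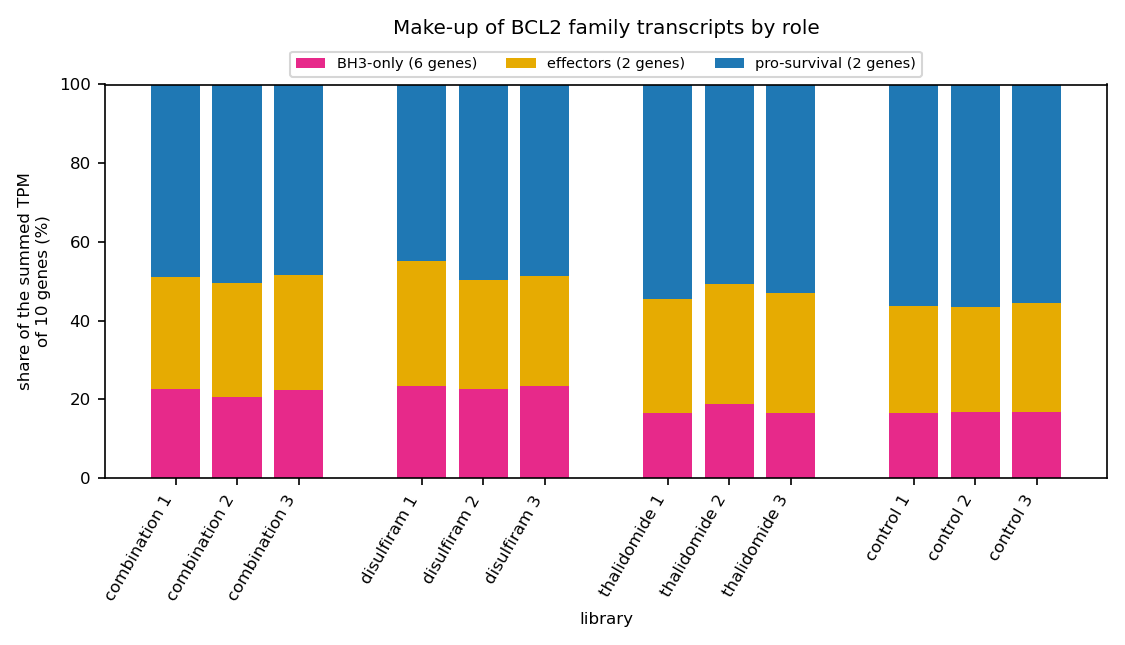
Share of the summed TPM of the 10 genes held by BH3-only, effector and pro-survival genes, 1 bar per library, grouped as combination, disulfiram, thalidomide and control. The BH3-only share is 20.7 to 23.5% in the 6 libraries with disulfiram and 16.5 to 18.9% in the 6 without it.

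Of 13 further BCL2 family genes, 7 were tested. In the combination 3 rose and none fell, where 18.4% of all genes rose and 6.7% fell. With disulfiram 2 rose and none fell, where 8.73% of all genes rose and 4.52% fell. BNIP3, a mitochondrial protein best known for mitophagy and induced in hypoxia, averaged 144 TPM in the combination, 139 with disulfiram and 71.1 in control. Its log2 fold change was 1.02 ± 0.22 in the combination (adjusted p = 0.00806) and 0.97 ± 0.22 with disulfiram (adjusted p = 0.0124, lost without disulfiram library 3). Its relative BNIP3L rose in the combination by 1.04 ± 0.31 (adjusted p = 0.0301). That call was lost without a filter, with median-of-ratios scaling, with GC correction, alone or with the replicate block, and without combination library 1 or 3 or control library 3. The pro-survival BCL2L2 rose by 0.46 ± 0.11 in the combination (adjusted p = 0.0146, lost with median-of-ratios scaling and without combination library 1 or 3). With disulfiram it rose by 0.39 ± 0.11 (adjusted p = 0.0382), a call kept by 8 of 21 alternatives. It was lost without combination or disulfiram library 1 or 3 or any control library, and in 6 further fits that included the replicate block and GC correction. The median of these 7 genes was 0.42 in the combination, against 0.20 over all genes, and 0.43 with disulfiram, against 0.09.

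Downstream of the mitochondria, 18 of 19 genes for the apoptosome, caspases and their inhibitors were tested. In the combination 9 rose and 4 fell, with a median of 0.30 beside 0.20 over all genes, and with disulfiram 4 rose and 1 fell, with a median of 0.15 beside 0.09. The shares of all genes that rose and fell, 18.4% and 6.7% in the combination and 8.73% and 4.52% with disulfiram, apply to this list and those that follow. BIRC3, an inhibitor of apoptosis and a target of NF-kappaB, had 6.78, 2.48 and 4.36 TPM in the combination, 3.75, 1.55 and 3.18 with disulfiram and 0.29, 0.83 and 0.48 in control, without overlap between treated and control libraries. It rose by 1.79 ± 0.29 in the combination (adjusted p = 0.00263) and by 1.29 ± 0.29 with disulfiram (adjusted p = 0.0145, lost without disulfiram library 1 or 3 or control library 1). In the combination the apoptosome scaffold APAF1 (0.76 ± 0.19, adjusted p = 0.018) and the caspase inhibitor XIAP (0.74 ± 0.21, adjusted p = 0.026) rose. Both calls were lost with GC correction, alone or with the replicate block, and without combination library 1 or 3 or control library 1 or 3, and that of XIAP also without control library 2, without a filter and with median-of-ratios scaling.

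Of 12 death receptor genes and adaptors 10 were tested, and 2 rose and none fell in each comparison, where 18.4% of all genes rose in the combination, near the share of this list, and 8.73% with disulfiram. The medians were 0.14 in the combination, beside 0.20 over all genes, and 0.17 with disulfiram, beside 0.09. CFLAR, which encodes the caspase-8 inhibitor c-FLIP, rose by 0.61 ± 0.14 in the combination (adjusted p = 0.00987, lost with GC correction, alone or with the replicate block). With disulfiram CFLAR rose by 0.59 ± 0.14 (adjusted p = 0.0153, lost without disulfiram library 1 or control library 1). CASP8, the caspase that cleaves BID, rose in the combination by 0.63 ± 0.20 (adjusted p = 0.0415), a call that 11 of 21 alternatives kept. It was lost without a filter, with median-of-ratios scaling, with GC correction, alone or with the replicate block, and without combination library 1 or 3, thalidomide library 3 or any control library. CASP10 rose with disulfiram by 0.51 ± 0.12 (adjusted p = 0.0156, lost in a fit of the compared groups alone and without disulfiram library 3 or control library 3).

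Among 14 transcription factors known to drive BH3-only genes, 13 were tested. In the combination 4 rose and 1 fell, with a median of 0.23 beside 0.20 over all genes, and with disulfiram 5 rose and 1 fell, with a median of 0.25 beside 0.09. The stress factor ATF3 rose by 1.29 ± 0.18 in the combination (adjusted p = 0.00129) and by 1.27 ± 0.18 with disulfiram (adjusted p = 0.00122). JUN rose by 0.82 ± 0.15 in the combination (adjusted p = 0.00461) and by 0.85 ± 0.15 with disulfiram (adjusted p = 0.00425), and DDIT3 by 0.82 ± 0.15 (adjusted p = 0.00474) in the combination and 0.73 ± 0.15 with disulfiram (adjusted p = 0.00969). ATF4, which is controlled largely at translation, fell by 0.57 in the combination (SE 0.11, adjusted p = 0.00635) and by 0.68 with disulfiram (SE 0.11, adjusted p = 0.00321). Each of these 8 calls held under all 21 alternatives.

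Of 18 genes for turnover and partners of BCL2 proteins, 3 rose and 1 fell in the combination, with a median of 0.19 beside 0.20 over all genes, and 1 rose and 1 fell with disulfiram, with a median of -0.0 beside 0.09. Over all genes 18.4% rose and 6.7% fell in the combination and 8.73% rose and 4.52% fell with disulfiram, shares near those of this list. The ubiquitin ligase subunits FBXW7 (0.68 ± 0.22, adjusted p = 0.0422) and BTRC (0.54 ± 0.17, adjusted p = 0.0401) and the deubiquitinase USP9X (0.66 ± 0.23, adjusted p = 0.05 as rounded and just under the threshold), all known to act on MCL1 or BIM protein, rose in the combination. These 3 calls were lost without a filter, with median-of-ratios scaling, with GC correction, alone or with the replicate block, and without combination library 1 or 3 or any control library. They were lost, too, without thalidomide library 2 or 3 for FBXW7 and USP9X, disulfiram library 3 for FBXW7 and BTRC, and disulfiram library 1 for USP9X. The USP9X call was kept by 7 of 21 alternatives and was lost also with the replicate block and with a pseudocount of 0.1. The kinase PIM1, which phosphorylates BAD, rose with disulfiram by 0.66 ± 0.15 (adjusted p = 0.016, lost with median-of-ratios scaling and without control library 1).

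Genes with the most similar profile to each changed member were sought by Pearson correlation on log2(TPM + 1) over the 12 libraries among 8957 tested genes averaging at least 5 TPM. The 12 libraries fall into 4 treatment groups and share their base composition differences, so the values describe a pattern and carry no test. BIK was closest to TIMP2 (r = 0.98), BBC3 to DYRK1B (0.98) and BTG2 (0.97), and PMAIP1 to ZNF211 (0.98) and WWTR1 (0.98). BCL2L1 was closest to DBN1 (0.99) and DESI1 (0.97), and MCL1 to GABARAPL1 (0.99) and DHRS7 (0.99). BCL2L11 had the loosest matches, PRR7 (0.92) and SIGIRR (0.92).

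**Figure D4:**
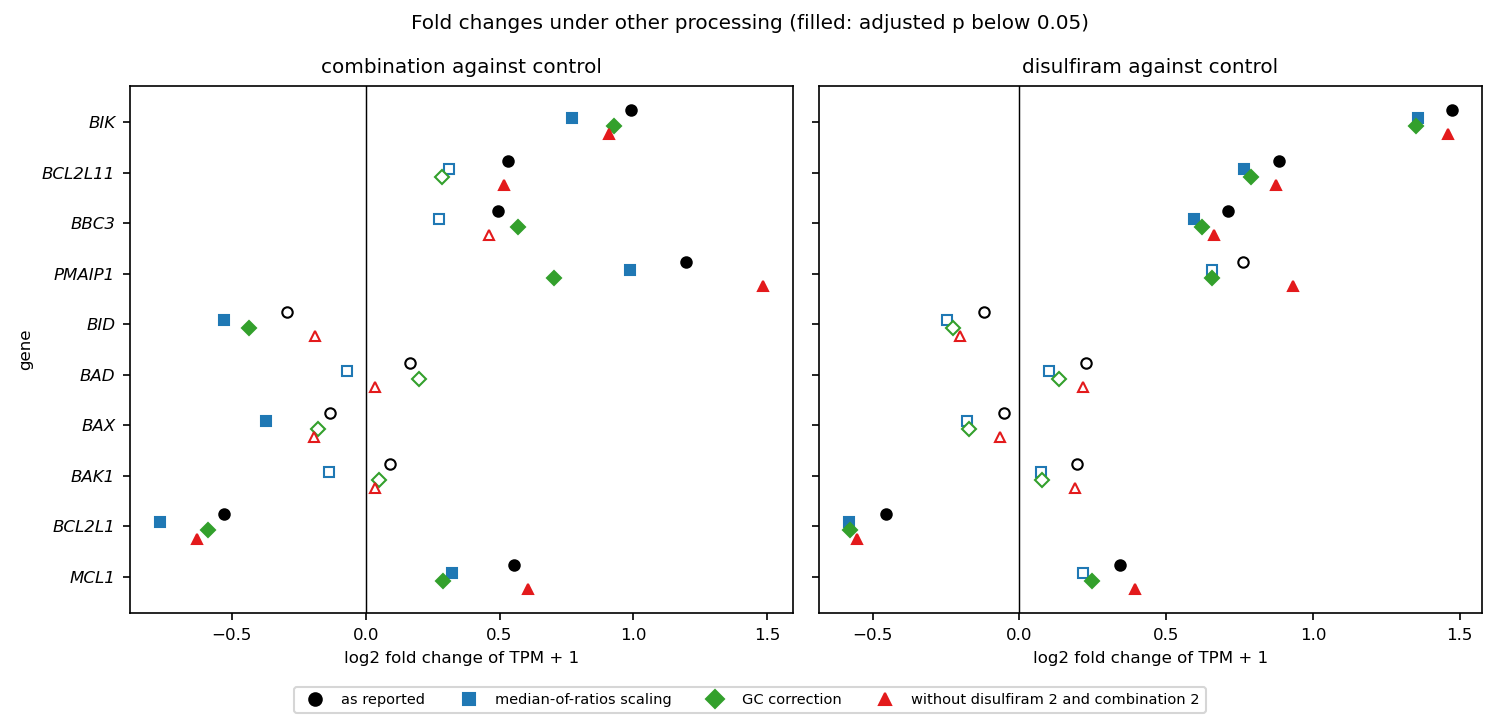
Log2 fold change of each member against control in the combination (left) and with disulfiram (right), as reported, with median-of-ratios scaling, with GC correction, and with that pair of GC-shifted libraries left out (disulfiram 2, combination 2), with filled points for an adjusted p below 0.05. In the combination, BIK, PMAIP1, MCL1 and BCL2L1 are filled under all 4, and BCL2L11 and BBC3 are open under some. With disulfiram, BIK, BCL2L11, BBC3 and BCL2L1 are filled under all 4.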

How the data were processed

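RNA was sequenced from 12 Huh7 libraries, 3 in each of 4 groups taken from the labels. The authors deposited TPM per gene, with the same column total in every library. Per the submitters' processing notes, HISAT2 2.0, StringTie 1.3.0 and hg38 were used. The sources used here give no annotation, filters, read strand or depth.

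Values were taken as log2(TPM + 1), which understates fold changes of low genes, and kept at 1 TPM or more in at least 3 libraries (15352 genes). limma 3.58.1 (R 4.3.3) with a mean-variance trend compared groups in 1 fit of all 12 libraries, two-sided, with Benjamini-Hochberg adjustment over all genes tested, after a check on simulated data. Alternatives were a pseudocount of 0.1, no filter, a mean of at least 5 TPM, a fit of the compared groups only, median-of-ratios scaling, a replicate block, a GC correction (a spline with 6 degrees of freedom), both together, and libraries left out. Genes named outside the 10 members were, per list, up to 4 past the threshold with the largest log2 fold change, and 1 such gene and 1 gene with a profile like that of BIK are not reported here. Members and lists were chosen with earlier results of these data known. DIABLO and RGS5, with 2 rows each, were left out of the lists.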

Additional observations from a re-analysis of the deposited data

How the results depend on the processing

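Of the 45 member differences recomputed, BIK, PMAIP1, MCL1 and BCL2L1 in the combination and BIK, BCL2L11 and BBC3 with disulfiram kept their calls against control under all 21 alternatives. Leaving out 1 library at a time gave 4 to 6 members called for the combination against control (6 as reported), 3 to 6 for disulfiram against control (5), 3 to 6 for the combination against thalidomide (5) and 1 to 4 for disulfiram against thalidomide (4). That last count was 2 without a filter (2134 genes called), 2 in a fit of the compared groups only (1602) and 1 with median-of-ratios scaling (2248). No member was called with thalidomide against control, for the combination against disulfiram or for the interaction under any alternative run. Signs turned with median-of-ratios scaling for BAD (-0.068) and BAK1 (-0.14) in the combination and for USP9X with disulfiram (-0.028), which was at -0.0068 with GC correction, with or without the replicate block, and ranged from -0.065 to 0.34 with 1 library left out. With thalidomide, PMAIP1 ranged from -0.25 to 0.073 and MCL1 from -0.038 to 0.081 with 1 library left out. The cause of these changes was not tested.

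Calls over all genes in the combination numbered 3852 as reported, 1426 to 5085 with 1 library left out and 2658 to 5850 under the other alternatives, and with disulfiram 2034, 1173 to 2190 and 1497 to 2943. In the same order, the combination against thalidomide had 4946, 2174 to 5844 and 3435 to 6468. Disulfiram against thalidomide had 2624, 1597 to 2809 and 1602 to 3556. No label says whether replicate numbers pair the libraries. Same-numbered libraries correlated in their deviations from the group means at -0.15 to 0.37, over 0.1 in 4 of 18 pairs. Differently numbered libraries were at -0.30 to 0.23, over 0.1 in 9 of 36 pairs. The highest value, 0.37, was between combination library 2 and disulfiram library 2. The deviations also follow GC content, so these values cannot decide whether libraries were paired. A replicate block called 6 members in the combination, 5 with disulfiram, 5 for the combination against thalidomide and 3 for disulfiram against thalidomide, where PMAIP1 was at an adjusted p of 0.0629. In the same order, it called 3584, 1786, 4632 and 2384 of all 15352 genes. Depth is unknown, and its part in the spread of low members such as PMAIP1 was not tested. Rounding to 2 decimals is a small step beside PMAIP1 values of 2.96 to 14.05 TPM.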
